A study of Homo sapiens with 2 samples.

Results

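Isolated summits of ZMYND8 were the rows of the parental summit list that lay 100 kb or more from every other row of that list, on chromosomes 1 to 22. They numbered 1979 of 45632 autosomal summits (4.34%, exact Clopper-Pearson interval 4.15 to 4.53), and the full list held 45924. The distance between positions chose them, so the distances and counts below are descriptions with no test. The data came from ChIP-seq with 1 antibody against ZMYND8 in mammospheres of MDA-MB-231, an established triple-negative breast cancer line grown here as floating spheres in MammoCult medium. There were 2 groups of 1 library each. The parental group had the wildtype genotype, and the other group was a ZMYND8 knockout of the same line, grown and immunoprecipitated in the same way. Whether the knockout cells were a single clone is not stated in the labels. Summit lists hold no expression, so the loss of ZMYND8 could not be checked from them. A single library per genotype allows no replicate check, and every interval given is a 95% interval for counting error only.

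ZMYND8 is a reader of modified histones: its PHD finger, bromodomain and PWWP domain contact acetylated and methylated histone tails, and its MYND domain binds other chromatin proteins. It is known at promoters and enhancers, where it works with corepressors and with transcription elongation factors. A summit is the base at which a ChIP-seq peak is highest. Active promoters and enhancers tend to crowd into gene-rich stretches of chromosomes, which stain lightly with Giemsa, whereas dark Giemsa bands are gene-poor and rich in heterochromatin.

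The members that could be placed at genes came from small sets of transcript models shipped with software packages, covering 308 autosomal protein-coding genes. The set that gives 275 of these genes names no build and was taken as hg19, and the other states hg19. At 12 of these genes an isolated summit lay no more than 1 kb from a start of transcription (TSS). RefSeq promoter sequences (GRCh38.p14) were matched by symbol for 11 of the 12, and MON2 had no entry. A set of 5 is shown because these genes had an isolated summit within 250 bases of a sampled TSS and because each sequence holds the motif common to all 11. The runs cover 250 bases that end just before the RefSeq TSS, 5′ to 3′ on the gene's strand. They lie at chr2:151409652-151409901 on the + strand (RIF1), chr11:104164148-104164397 on the - strand (PDGFD), chr9:99221943-99222192 on the - strand (ALG2), chr11:74171039-74171288 on the + strand (PPME1) and chr5:93741601-93741850 on the - strand (POU5F2), all in GRCh38.p14. Capitals mark CCGCCC, the core of the SP/KLF motif, or its reverse complement GGGCGG, and in PPME1 also the ETS motif CCGGAAGT, seen as ACTTCCGG. The summits of these genes lay 149 to 247 bp downstream of the nearest sampled TSS, outside the printed bases. For RIF1 that TSS was not the first sampled start, which lies at 152266397 of chromosome 2, with the summit at 152266757. The RIF1 summit may therefore lie farther than 153 bp from the end of the printed run.
RIF1: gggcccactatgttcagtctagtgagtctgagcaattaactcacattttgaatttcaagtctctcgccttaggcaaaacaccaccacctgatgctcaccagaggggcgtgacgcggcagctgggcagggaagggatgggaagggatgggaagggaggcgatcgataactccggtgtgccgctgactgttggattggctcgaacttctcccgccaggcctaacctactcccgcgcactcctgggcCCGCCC
PDGFD: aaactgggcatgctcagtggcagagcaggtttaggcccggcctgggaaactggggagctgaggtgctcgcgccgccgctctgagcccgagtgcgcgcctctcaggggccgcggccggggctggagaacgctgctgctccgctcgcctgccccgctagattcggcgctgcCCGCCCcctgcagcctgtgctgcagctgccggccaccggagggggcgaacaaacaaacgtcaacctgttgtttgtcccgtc
ALG2: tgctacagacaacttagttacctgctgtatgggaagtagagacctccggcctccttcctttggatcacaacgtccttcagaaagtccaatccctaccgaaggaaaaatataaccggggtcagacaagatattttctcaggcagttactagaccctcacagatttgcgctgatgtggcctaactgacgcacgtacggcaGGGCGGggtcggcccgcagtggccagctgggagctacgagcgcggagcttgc
PPME1: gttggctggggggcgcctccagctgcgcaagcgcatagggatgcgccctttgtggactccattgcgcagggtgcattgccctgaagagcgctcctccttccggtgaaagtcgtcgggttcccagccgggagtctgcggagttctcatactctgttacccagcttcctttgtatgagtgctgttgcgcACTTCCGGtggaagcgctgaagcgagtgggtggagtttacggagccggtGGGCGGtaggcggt
POU5F2: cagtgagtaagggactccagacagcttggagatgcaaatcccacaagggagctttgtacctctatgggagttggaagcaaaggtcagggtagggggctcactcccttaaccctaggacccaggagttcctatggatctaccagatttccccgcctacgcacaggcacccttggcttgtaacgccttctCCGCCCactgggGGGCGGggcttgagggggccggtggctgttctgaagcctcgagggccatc

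All of the 11 promoters held CCGCCC on one strand or the other in the 250 bases before the RefSeq TSS. The summits of these genes lay 149 to 597 bp downstream or 508 to 842 bp upstream of the nearest sampled TSS. The motif and base counts therefore describe sequence before the TSS and not the sequence at the summits. The same letters stood in 71.8% of the promoters of sampled genes whose promoter summits were not isolated (94 of 131 matched, 63.2 to 79.3), in 45.6% of those with no parental promoter summit (52 of 114, 36.3 to 55.2) and in 42.3% of 27305 RefSeq promoters cut to the same 250 bases. The interval for 11 of 11 begins at 71.5%, so it overlaps the interval of the promoters with clustered summits. Median GC content was 59.2% in the 11 promoters, from 38.0% in CASP4 to 81.6% in OPN3, against 67.2% where the promoter summits were not isolated and 59.0% where there was none. The isolated set had a median of 17 CG dinucleotides, against 23 and 12.5. Several other motifs, searched on both strands, had no match in the 11 promoters. The AP-1 motif TGACTCA stood in 4.16% of all promoters. Its form with a free middle base, TGANTCA, which includes the first, stood in 6.60%. The TEAD motif GGAATG stood in 11.9% of them. The forkhead motif TGTTTAC stood in 2.98%. The GATA motif GATAAG stood in 5.65%. The AP-2 motif GCCNNNGGC was found in POU5F2 and RIF1 and in 19.7% of all promoters. The E-box CACCTG was found in KLRG1 and RIF1 and in 17.5% of all promoters. The ETS motif stood in PPME1 alone among the 11 and in 3.64% of all promoters.

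The promoter members belonged to genes of varied function. Only sampled genes were searched, so a gene outside the sets may start nearer to a summit than the gene named. The highest score was at ETV6, an ETS family repressor, where the summit at 11801946 of chromosome 12 (12p13.2) lay 842 bp upstream of the TSS and scored 8.87. Scores are those the authors deposited with each peak, on a −log10 scale of p or q. RIF1, which guards double-strand break ends and sets replication timing, had a summit that scored 6.70, at 152266757 of chromosome 2 and 153 bp downstream of the nearest of its sampled start sites. That was the only parental summit from the RIF1 promoter to its gene end, and the nearest other summit was 120.7 kb away. The growth factor gene PDGFD had a summit scoring 6.53 at 104034706 of chromosome 11 (11q22.3), 169 bp downstream of the nearest sampled TSS, and another isolated summit in its body with a score of 3.75. ALG2, a mannosyltransferase of N-glycan assembly, had a score of 5.68 at 101984073 of chromosome 9.

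Other promoter members scored 4.71 or less, where the median of the list was 3.79. The lymphocyte receptor gene KLRG1 had a score of 4.71, with the summit 536 bp upstream of the sampled TSS. The summit thus lay outside the KLRG1 model, and whether an unsampled gene starts nearer was not tested. The inflammatory caspase gene CASP4 had 4.49, with the summit 696 bp upstream. MON2 (a regulator of endosome to Golgi traffic), R3HDM1 and the zinc and manganese importer gene SLC39A8 each had a score of 3.79. PPME1, which removes the methyl group of protein phosphatase 2A, had 3.44, the opsin gene OPN3 had 2.93 and POU5F2, a POU domain factor, had 2.14. Over the 12 genes the summit was downstream of the TSS in 8 and upstream in 4, at a median distance of 351 bp, and within 500 bp in 7. In 10 of the 12 it was the only parental summit of the gene; ETV6 had 8 and PDGFD 2. The knockout summit closest to any of the 12 was 0.578 Mb away, at PPME1. Within 100 kb, 0.808% of all isolated summits (16 of 1979) and 10.6% of all autosomal summits had a knockout summit. Shares at larger distances were not counted, so how usual 0.578 Mb is in this list is not given.

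Sampled protein-coding genes with a parental promoter summit numbered 159, so 7.55% of them (3.96 to 12.8) owed one to an isolated summit. The share of isolated summits in the whole autosomal list, 4.34%, lies inside that interval, but it counts summits and not genes. A gene counts once however many promoter summits it has, so these shares are not like for like. The 2 sources of gene models gave 9 of 144 and 3 of 15. Beyond the promoter, 10 protein-coding genes had an isolated summit in the gene, 2 of which (PDGFD and ETV6) also had one at the promoter. The other 8 included MAGI2, a scaffold of synapses and cell junctions (score 8.87 at 77648683 of chromosome 7), the kinase gene NEK11 (6.70) and, with equal scores, CAMTA1 and IDO2, which degrades tryptophan (3.79 each). Lower scores were found in HDAC9, a class IIa histone deacetylase (2.93), FNDC3A (2.14), the AMPA receptor gene GRIA4 (2.14) and KANK1 (2.05). Noncoding genes with an isolated summit were LINC01134 (3.79), MIR7846 (2.88) and the pseudogene GBA3 (5.68). The MIR7846 model covers only 0.096 kb, so its start may not be where transcription begins. Its summit may belong to a gene that was not sampled.

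Few genes of the lists drawn up for sparse regions were among the sampled genes. Long neuronal adhesion and synapse genes had 2 sampled members, of which MAGI2 had an isolated summit and NCAM2 had no summit. The sampled cadherin gene PCDH15 and the axon guidance gene SEMA3C had none, and neither did the olfactory receptor genes OR12D2 and OR2K2. GRIA4 was the only sampled glutamate or GABA receptor gene. Of 2 developmental transcription factor genes, POU5F2 had an isolated summit and TSHZ1 had summits that were not isolated. Of 4 potassium channel genes, 1 had a summit and none an isolated one. PDE4D of the fragile site list, APOE of the sterol list and CAV1 of the mesenchymal list had summits, none of them isolated. No marker gene of luminal or basal breast, fibroblasts, endothelium or blood was among the sampled genes.

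Isolated summits were found on all 22 autosomes. Chromosome 3 held the most per Mb, 0.879 (174 summits), and chromosome 17 the fewest, 0.394 (32 summits), with a median of 0.705 over chromosomes. All densities are per Mb of full length, with no unassembled sequence left out. Whether the order of chromosomes holds per Mb of assembled sequence was not tested. All parental summits ranged far more widely, from 5.95 per Mb on chromosome 13 to 50.6 on chromosome 19. As a share of each chromosome's summits, isolated ones came to 12.6% on chromosome 13 (86 of 685, 10.2 to 15.3), 11.5% on chromosome 4 (149 of 1301, 9.77 to 13.3) and 9.90% on chromosome 18 (58 of 586, 7.60 to 12.6). The share was 0.802% on chromosome 19 (24 of 2994, 0.514 to 1.19), 1.11% on chromosome 17 (0.762 to 1.57) and 1.65% on chromosome 20 (1.12 to 2.33). These are the highest and lowest shares, and the rule ties the share to summit density, so the intervals make no test between chromosomes. The largest count, 179, was on chromosome 1, and chromosome 19 had the smallest.

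Across the 22 chromosomes, which share 1 library, Pearson's r between summits per Mb and the isolated share was -0.75, and Spearman's rho was -0.92. Without chromosomes 17 and 19, r was -0.84. The rule itself ties these measures, since a crowded chromosome has few free stretches of 100 kb to either side of a summit. For isolated summits per Mb, r was -0.63 and rho -0.51, and without the same chromosomes r was -0.37.

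**Figure D1:**
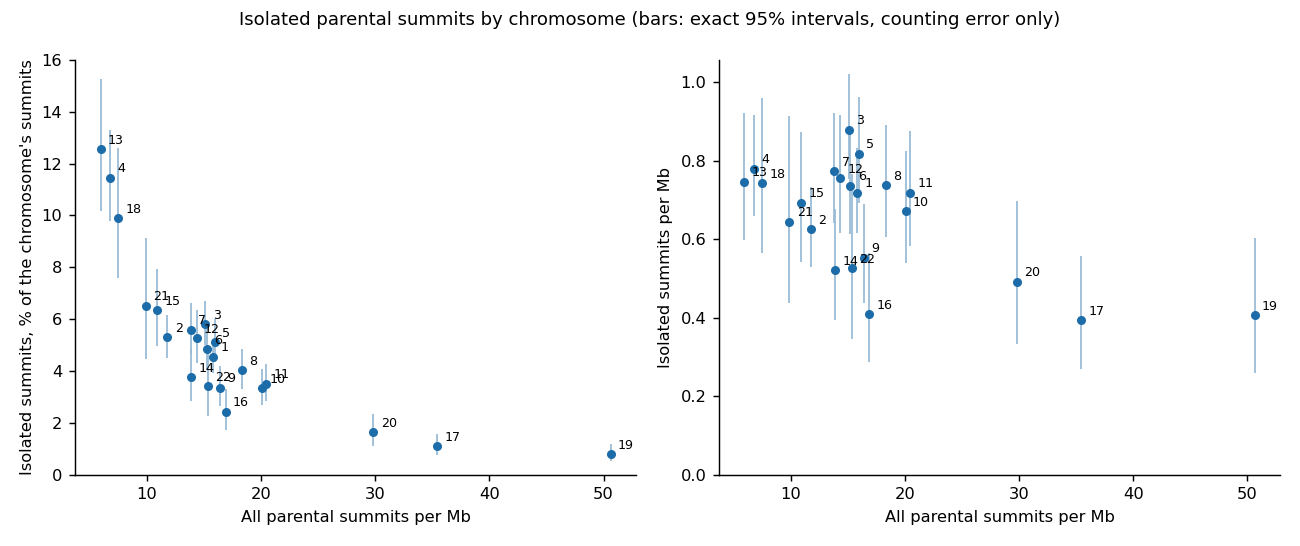
Each point is an autosome, labelled by number, with all parental summits per Mb on the x axis and isolated summits as a share of the chromosome's summits (left, %) or per Mb (right) on the y axis; bars are exact 95% intervals. The share spans 0.802% to 12.6%, while the density spans 0.394 to 0.879 per Mb, with chromosomes 16, 17 and 19 lowest.

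Outside centromere and variable heterochromatin bands, the density of isolated summits varied little between Giemsa stain classes. Isolated summits numbered 0.713 per Mb in light bands, 0.656 in the palest grey class (25% stain), 0.781 in the 50% class, 0.740 in the 75% class and 0.766 in the darkest class. The other parental summits numbered 23.2, 27.9, 12.2, 7.63 and 3.78 per Mb in the same classes. Dark bands (75% and 100% classes) therefore held 639 isolated summits, 32.3% of them (30.2 to 34.4), and 10.8% of the other summits (10.46 to 11.05), while making up 29.4% of the chromosome length. In the darkest class 16.8% of all summits were isolated, against 2.99% in light bands. Centromere bands held 16 isolated summits and variable heterochromatin bands another 16, or 0.163 per Mb in each. In dense bands the rule leaves few places for an isolated summit, so this density is a description of the members and not a test.

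**Figure D2:**
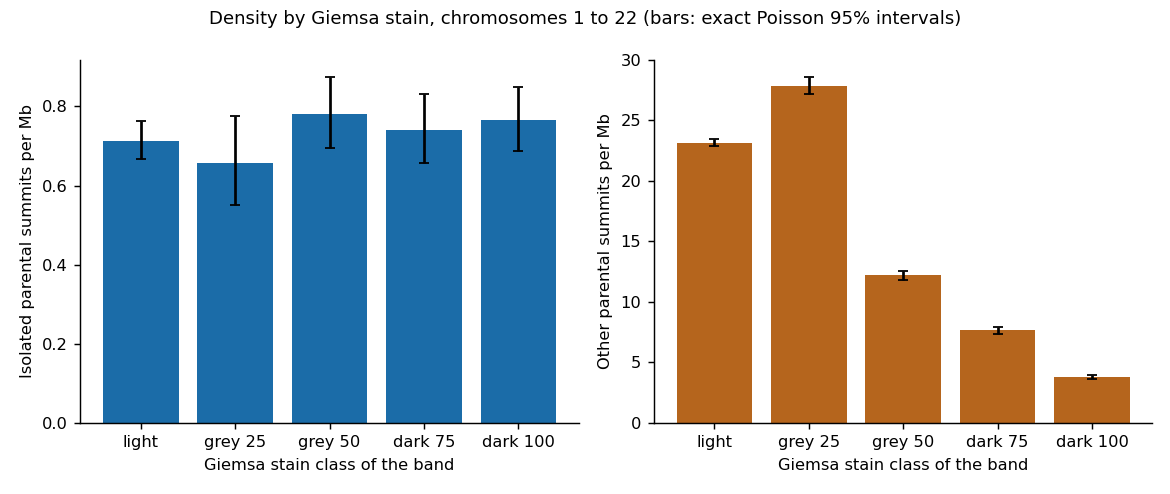
Bars give isolated (left) and other (right) parental summits per Mb of band, by Giemsa stain class from light to darkest, with exact Poisson 95% intervals. Isolated summits stay between 0.656 and 0.781 per Mb, while the other summits range from 27.9 down to 3.78.

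How sparse the surroundings were varied between members. In 1 Mb windows, 895 isolated summits (45.2%) lay in windows with 1 to 5 parental summits, a class that made up 27.8% of all windows. Windows with 6 to 20, 31.5% of all windows, held 833 (42.1%). Another 213 lay in windows with 21 to 50, and 38 lay in windows with 51 or more. Of the 1375 windows with an isolated summit, 359 held no other kind, and 483 of 2897 windows held no parental summit at all. Windows covered the full chromosome lengths, so some empty ones may lie in unassembled sequence, where no summit can be called. Ends of chromosomes held few members: 0.960% of isolated summits lay within 1 Mb of an end, against 4.53% of the others. Within 1 Mb of a centromere band the shares were 2.17% and 1.12%.

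Isolated summits often followed one another. Counting neighbours along a chromosome, 716 members stood between summits that were not isolated, and 1263 stood in 447 runs of 2 or more. The longest run held 11 in 4.09 Mb of 2p24.3 to 2p24.2, from 14656660 to 18741766 of chromosome 2, and its scores had a median of 3.71. A run of 9 spread over 8.54 Mb of 4q13.1 to 4q13.2 (60045300 to 68588089 of chromosome 4), and all of the 5 summits of the dark band 4q13.1 were isolated. Other runs of 9 lay in 5q21.1 (2.93 Mb) and in 11q22.3 (2.04 Mb). The 11q22.3 run began with the PDGFD summits and also held those at CASP4 and GRIA4. By count, 1p31.1 led with 20 isolated summits of 89, followed by 1q41, 3p24.3 and 6q12 with 12 each. In 7q21.11, the band of MAGI2, 9 of 11 summits were isolated, and in 2p24.2 it was 8 of 10.

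The distance from a member to its nearest neighbour had a median of 179.9 kb and quartiles of 128.6 and 294.0 kb, against a median of 1.43 kb over all autosomal summits. On the farther side the median was 417.7 kb. A distance of 200 kb was reached by 877 members, 500 kb by 199, 1 Mb by 57 and 2 Mb by 5. The most isolated summit, at 22370548 of chromosome 21 in 21q21.1, was 2809 kb from the next one and had a score of 3.79. It was followed by 62508337 of chromosome 16 in 16q21 (2647 kb, score 2.85), 62527872 of chromosome 4 in 4q13.1 (2078 kb, score 5.54) and 165008986 of chromosome 5 in 5q34 (2076 kb, score 2.14). The fifth lay at 57309789 of chromosome 13 in 13q21.1 (2038 kb, score 4.71), and all 5 were in bands of the darkest class. The next 5 lay in 18q12.2, 9p24.1, 9p13.1, 21q21.2 and 13q31.2, at 1977, 1967, 1926, 1800 and 1724 kb. Their scores ran from 2.88 to 5.54, and the knockout summit closest to any of the 10 was 3.51 Mb away. Within 100 kb, a much shorter distance, 0.808% of isolated summits and 10.6% of all autosomal summits had a knockout summit. Shares at distances of several Mb were not counted.

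The members just inside the threshold were a pair in 2p16.3, 100102 bp from each other (scores 3.79 and 2.88), and single summits in 8q24.22 (100166 bp, 4.73), 4q35.2 (100179 bp, 2.93) and 8p12 (100386 bp, 2.93). Just outside were summits in 15q23 (99987 bp, score 1.45), 3p14.1 (99960 bp, 5.68), 1q21.1 (99901 bp, 2.93), 1p13.2 (99875 bp, 2.14) and 22q13.31 (99766 bp, 5.68). Scores on both sides of the threshold overlapped.

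Scores of isolated summits tended to be lower than those of other summits. The median was 3.79 in both, a value that 5423 autosomal summits shared. Scores under 2.5 made up 19.2% of isolated and 14.9% of other summits, and scores from 5 to under 10 made up 18.2% and 23.6%. The upper quartile was 4.71 against 5.68, and the highest was 21.7 against 263.6. A score of 10 was reached by 54 isolated summits (2.73%, 2.06 to 3.55) and by 2811 others (6.44%, 6.21 to 6.67), where the share of all autosomal summits was 6.28%. The intervals of these shares did not overlap. A score of 20 was reached by 2 isolated summits and 291 others. The share of summits that were isolated was 5.51% among scores under 2.5 (4.98 to 6.07), 4.70% from 2.5 to under 5, 3.37% from 5 to under 10 and 1.88% from 10 upward (1.42 to 2.45). Only 5 score values (2.93, 3.79, 2.14, 4.71 and 5.68) accounted for 1109 members (56.0%) and for 44.1% of the other summits, so most members share tied scores.

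The highest isolated summit, at 34998493 of chromosome 3 in 3p22.3, had a score of 21.7 and rank 202 of the whole list. The second, at 57025956 of chromosome 15 in 15q21.3, had 20.9, and the others of the first 4 were in 7q32.3 (132233315 of chromosome 7, 18.9) and 4q13.2 (68588089 of chromosome 4, 18.8). The 4q13.2 summit was 623.9 kb from its neighbour and closed the run of 9 described above. Summits at 77071805 in 5q14.1 and 102090838 in 5q21.1 of chromosome 5 tied at 17.5. Those in 20q11.22 (16.7), 2p14, 9q21.2 and 13q12.3 (16.2 each), 15q13.1 (16.0) and 3q13.2 (15.8) came next. The rest of the 20 highest lay in 5p15.31, 13q12.3, 13q31.3, 21q22.3, 15q14, 5q14.1, 1q41 and 1q42.12, with scores from 14.9 to 12.4. The 13q31.3 summit (92000497 of chromosome 13, score 14.9) was 904.4 kb from its nearest neighbour, in a band of the darkest class. The 54 members that reached 10 were on 18 chromosomes, and 28 of them were in light bands. Light bands held 44.0% of all isolated summits and 64.8% of the other summits.

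Over the whole autosomal list, scores varied unevenly with distance to the nearest summit. A score of 10 was reached by 8.91% of summits with a neighbour within 1 kb (8.51 to 9.32) and 4.78% at 1 to 10 kb. The share was 3.81% at 10 to 50 kb (3.37 to 4.28) and 5.57% at 50 to 100 kb (4.62 to 6.64). At 100 to 200 kb it was 2.99% (2.07 to 4.18), at 200 to 500 kb 2.36% and at 500 kb or more 2.51% (0.821 to 5.77). The 50 to 100 kb class stood above the classes on both sides of it, and its interval overlapped neither of theirs. The share therefore fell across 100 kb, but it also rose across 50 kb. The intervals at 10 to 50 kb and 100 to 200 kb overlapped, so no break particular to 100 kb is read from these classes. The median score was 4.70 in the closest class and 2.93 in the farthest.

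**Figure D3:**
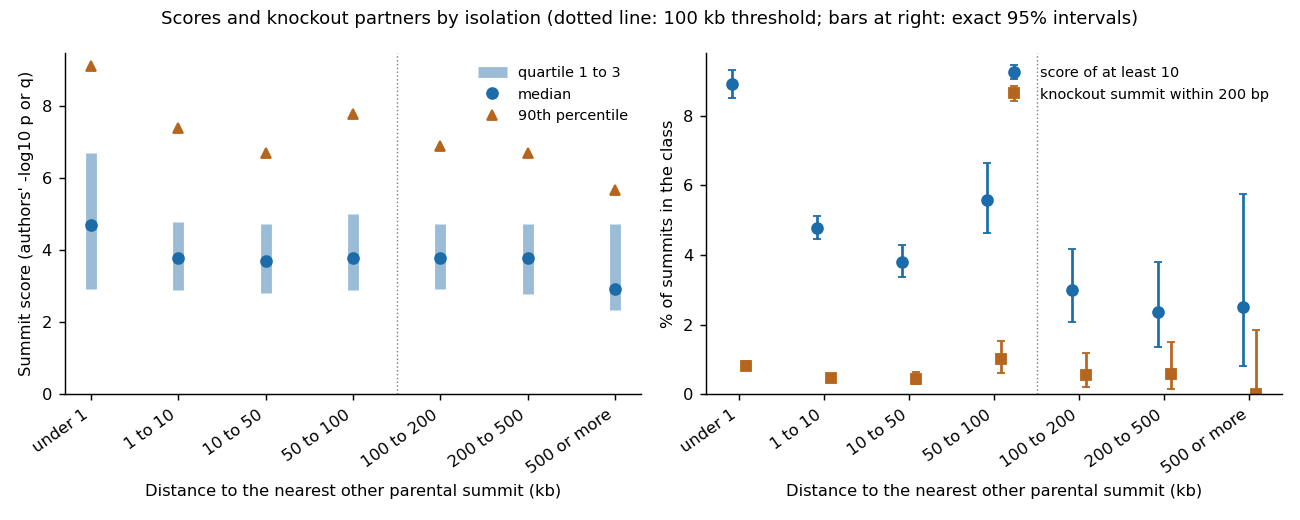
Autosomal parental summits are grouped by distance to the nearest other parental summit (kb, x axis). The left panel gives the score (median, quartiles, 90th percentile) and the right panel the share (%) with a score of at least 10 or with a knockout summit within 200 bp, with exact 95% intervals; isolated classes are right of the dotted line. The share reaching 10 is 8.91% in the closest class and 2.36% to 2.99% in the isolated ones.

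Knockout summits were rare at isolated summits, about as rare as elsewhere in the parental list. A knockout summit lay within 200 bp of 10 of the 1979 (0.505%, 0.243 to 0.927), against 0.641% of the other autosomal summits (280 of 43653, 0.569 to 0.721) and 0.636% of all of them. The intervals overlapped. Within 1000 bp the isolated count was 13 (0.657%, 0.350 to 1.12), against 1.23% of the others (1.133 to 1.343) and 1.21% overall. At that distance the intervals did not overlap, but several crowded parental summits can lie within 1000 bp of the same knockout summit, which isolated ones by their rule cannot. Widening to 100 kb added 3 members, for 16 in all, and 11.1% of the other summits had a knockout summit within 100 kb. The rule shapes that contrast as well, so no trait of the members is read from it. A member has no other parental summit nearer than 100 kb, and 291 of 385 knockout summits lay within 200 bp of a parental one. Crowded summits can again share a knockout summit. Read depth can set the length of a summit list and is unknown for both libraries, so its part in the absence of knockout summits was not tested.

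Within classes of score, isolated and other summits had overlapping intervals for a partner within 200 bp. From 5 to under 10 it was 5 of 360 isolated summits (1.39%, 0.452 to 3.21) and 0.640% of others (0.495 to 0.813). At 10 or more it was 2 of 54 (3.70%, 0.452 to 12.7) and 6.08% (5.23 to 7.03). Below 5, 3 isolated summits had a partner, 1 of them below 2.5. Of the 54 isolated summits that reached 10, 50 had no knockout summit within 1000 bp (92.6%, 82.1 to 97.9), and among the 20 highest it was 17. The share was 91.6% of other summits that reached 10 (90.5 to 92.6) and 98.8% of all autosomal summits.

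The 10 partnered members lay on 8 chromosomes, and the knockout summit was 2 to 69 bp away, with a median of 24 bp. Among the 10, 8 had a parental score at or above the median of the list, a level that 58.4% of autosomal summits and 52.0% of isolated ones reached because of ties. Each list was scored on its own, so the values are set side by side and no change is read from them. The site with the highest parental score was that in 15q21.3 (57025956 of chromosome 15), with 20.9 in the parental and 5.94 in the knockout list, 30 bp apart. The site in 5p15.31 (8457960 of chromosome 5) had 14.9 and 4.81, and it was 448.2 kb from the nearest other parental summit. In 8q23.2 (110552155 of chromosome 8) the scores were 9.14 and 10.97, and in 1p13.3 (111506157 of chromosome 1) they were 8.87 and 2.48. The sites in 16p13.12 (8.48 and 8.04), 2q11.2 (7.77 and 5.37), 14q31.3 (6.80 and 3.28) and 2p25.3 (4.15 and 3.95) followed.

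The remaining 2 partnered members had low parental scores and higher knockout scores. The site at 121485288 of chromosome 1 in 1p11.2, 0.0147 Mb from the centromere band, had 3.17 in the parental and 35.9 in the knockout list. Its next parental summit on the other side was 21.1 Mb away, across the centromere and the heterochromatin of 1q12. The site at 66971231 of chromosome 9 in 9q13, next to the heterochromatin band 9q12, had 1.72 and 6.37, and the summits of the 2 lists were 2 bp apart. Without members in these 2 bands the partnered share was 0.405% (8 of 1976). Members with a knockout summit at 412 to 668 bp were in 13q12.3 (parental score 16.2), 8p23.1 (12.4) and 12p13.2 (9.75), and the knockout score was 4.06 in each.

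**Figure D4:**
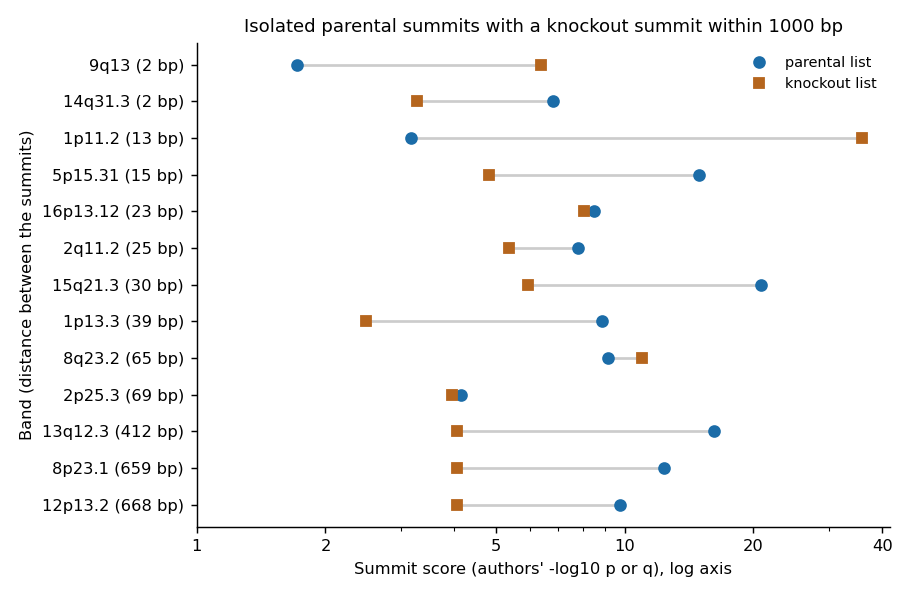
Rows are the 13 isolated parental summits with a knockout summit within 1000 bp, named by band with the distance between the summits in bp; the x axis (log) gives the authors' score in the parental (circles) and knockout (squares) list. The parental score is the higher one except in 9q13, 1p11.2 and 8q23.2.

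Seen from the knockout list, 291 of its 385 summits had a parental summit within 200 bp, and for 10 of them (3.44%) that parental summit was isolated, where 4.34% of autosomal parental summits were isolated. These 10 had a median knockout score of 5.66, against 4.66 for the shared knockout summits at parental summits that were not isolated.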

How the data were processed

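ChIP-seq summits were analysed for 1 parental and 1 ZMYND8 knockout library, grouped by the genotype in the labels. Each deposited list gives hg19 positions and a score per summit, the −log10 p or q value from the authors' peak calling. No source used here says which of these it is, or gives the control library, threshold or depth. MACS2 2.0.10, Bowtie2 2.2.3, Picard 1.127 and FastQC 0.11.2 are named, without roles, in the submitters' processing notes.

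Positions are 1-based. Nearest distances were computed over the whole parental list, and a knockout partner lay within 200 bp. The isolation and partner steps were tested on simulated lists. Bands and lengths came from circlize 0.4.16. Gene models came from example sets in pyranges 0.1.4 and GenomicFeatures 1.54.1 (672 transcripts, 661 matched to RefSeq symbols). The first set names no build, and all of its models used here fit hg19 lengths; neither is known to be a random sample. RefSeq promoter sequences were matched by symbol. Intervals are exact Poisson or Clopper-Pearson at 95%. Scripts ran in Python 3.11.15 (scipy 1.17.1, numpy 2.4.6, pandas 2.3.3, matplotlib 3.10.9).

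Named summits are the 20 highest scores, the 10 largest distances, every member with a knockout summit within 1000 bp and 5 rows on each side of the threshold. All sampled genes with an isolated summit are named. The members and lists were chosen with earlier results of these data known. No test between genotypes was possible with 1 library each.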

Additional observations from a re-analysis of the deposited data

How the results depend on the processing

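No paired analysis was possible because both genotypes have a single library, and no replicate could be left out. Of 22 alternatives, 16 stayed within 1.5 times the main count, inside the interval of the main share or between the quartiles of the scores, and 6 did not. The number of isolated summits was 4062 at 50 kb, 877 at 200 kb and 199 at 500 kb, which follows from the threshold. As a share of the summits kept, isolated ones came to 5.16% (2130) with rows within 500 bp merged and 7.87% (2097) with only summits at or above the median score, both outside the interval of the main 4.34%, although their counts stayed within 1.5 times the main one. The share in dark Giemsa bands was 25.6% at 50 kb and 41.6% at 200 kb. The share of sampled promoters was 20% (3 of 15) with the GenomicFeatures models alone; the cause was not tested. The partnered share ran from 0.405% to 0.777% over its alternatives. Settings for sampled promoters and the one that leaves out 1p11.2 and 9q13 were chosen after seeing the data. Planned motif searches under summits were not run, since no hg19 genome was used here. Unknown depth limits every comparison of the lists.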
